A study of Homo sapiens with 24 samples.

Results

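The dexamethasone response of U2OS cells carrying SoF GR was compared with that of U2OS cells carrying Ctrl GR, gene by gene, in 12 of the 24 libraries of a 4sU-seq time course. For each gene, the level at 0 h was subtracted from the mean of the 2 h and 3 h levels in SoF (6 libraries), and the same difference in Ctrl (6 libraries) was subtracted from it, all on the log2 scale and as a single interaction contrast. A positive value therefore means a response that was larger, or a fall that was smaller, in SoF, and a value of 1 means that the fold change in SoF was that of Ctrl multiplied by 2. Of 61533 genes in the table, 23651 passed the filter on low counts and were tested.

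U2OS is a human osteosarcoma line with little glucocorticoid receptor (GR) of its own. SoF is GR with a lysine changed to alanine (K492A), a separation-of-function mutant made to lose RNA affinity. Ctrl is GR with an arginine changed to alanine (R470A), without the designed loss of RNA affinity. By the paper's values both lose DNA affinity to a moderate degree, Ctrl somewhat more than SoF. Both proteins carried a HaloTag at the C-terminus, were expressed from a stably integrated transposon under a viral promoter in cells that kept their endogenous receptor gene, and each line was a single sorted pool, so construct and pool cannot be told apart. Dexamethasone, a synthetic glucocorticoid, was given at 100 nM, and cells were taken after 1, 2 and 3 h or after 0.01% ethanol (0 h), with 200 µM 4-thiouridine (4sU) present for the last hour, and each line and time had 2 libraries. Medium was replaced when dexamethasone or ethanol was given, and all treated times share a single ethanol group in each line. Within a line, dexamethasone and the hours since the medium change therefore cannot be told apart. The third line, wt GR with the same tag, entered the same fit, and its own response chose one of the gene sets described here.

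GR is a nuclear receptor that stays largely in the cytoplasm with chaperones until a glucocorticoid binds it. It then enters the nucleus and binds DNA at glucocorticoid response elements, where it raises transcription of genes such as FKBP5, PER1 and TSC22D3, and it lowers many inflammatory genes. Because 4sU enters RNA only while it is being made, 4sU-seq follows transcription over the last hour more closely than total RNA does.

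Total counts of the 12 libraries ran from 8106036 (Ctrl, 0 h, replicate 2) to 15060777 (Ctrl, 2 h, replicate 2), and levels are given as CPM, which are read counts scaled to library size with TMM factors. NR3C1, the GR gene, was counted from the endogenous and introduced copies together. It stood at 2833 and 2428 CPM in the 2 SoF libraries at 0 h and at 3202 and 3431 CPM in the Ctrl libraries. These are levels of RNA. The paper picked its sorted cells by immunofluorescence so that nuclear GR protein after dexamethasone matched between the lines. The responses of NR3C1 differed by -0.14 (SE 0.25) between the lines, and its levels differed by -0.33 at 0 h (adjusted p = 0.834) and -0.47 at 2 to 3 h (adjusted p = 0.0919, edgeR quasi-likelihood test with Benjamini-Hochberg adjustment), lower in SoF without a call. Of 8 osteosarcoma and mesenchymal markers, RUNX2, COL1A1, SPARC, VIM, ALPL and CDH2 were detected, COL1A2 was below 1 CPM on average, and TWIST1 was at 0 in all 12 libraries. The summed level of these markers was 1378 to 1781 CPM in SoF and 1521 to 2347 CPM in Ctrl. Of 17 markers of other cell types, 11 were below 1 CPM on average, HBB was at 0 throughout, and the summed level was 21.1 to 33.2 CPM in SoF and 31.6 to 35.6 CPM in Ctrl, and the part of these differences in the results was not tested.

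By p-value the contrast was led by TXNIP, the noncoding RNA ENSG00000213062 and PDK4, which were above their 0 h levels in SoF and wt at 2 and 3 h and overlapped them in Ctrl, followed by ETNK2 and ADPRHL1, which rose in both lines and by more in SoF. edgeR's quasi-likelihood test called 0 of 23651 genes with a larger response in SoF (0%) and 0 with a smaller one (0%) at an adjusted p under 0.05. Before adjustment 545 genes had a p under 0.05 (2.30%), of which 328 were larger and 217 smaller in SoF. That share is below the 0.05 expected if no response differed. DESeq2 called 7 genes, all with a larger response in SoF (0.0296% of the genes tested): TXNIP, PDK4, ETNK2, ADPRHL1, RHOB and the noncoding RNAs LINC02772 and ENSG00000213062. Without Ctrl replicate 2 at 0 h, edgeR called 4 genes, TXNIP, ETNK2, MT1E and MT1X, all larger in SoF. Without SoF replicate 2 at 2 h it called 2, TXNIP and ENSG00000213062, and it called 0 without any other single library. With the replicate number as a block it called 3, TXNIP, ENSG00000213062 and PDK4, and with a block for each line 7, TSC22D3 among them. For the difference at 3 h alone, edgeR called 3 genes, TXNIP, PDK4 and ETNK2, all larger in SoF. The following values are therefore given as sizes with their errors. Apart from those 3 h differences, no edgeR call stands behind them unless stated.

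TXNIP, the thioredoxin-interacting protein, is an alpha-arrestin that restrains glucose uptake and binds thioredoxin (ENSG00000265972.6, chromosome 1, 145992435 to 145996579, minus strand, hg38). Its level in SoF was 10.6 and 14.6 CPM at 0 h, 35.3 and 50.4 at 1 h, 74.3 and 63.0 at 2 h, and 70.5 and 66.8 at 3 h. In Ctrl it was 20.5 and 16.1 CPM at 0 h, 38.3 and 33.4 at 1 h, 29.8 and 29.1 at 2 h, and 12 and 16.6 at 3 h. All 4 SoF libraries of 2 and 3 h lay above all other libraries of these lines used here, whereas the Ctrl libraries of 2 and 3 h overlapped those of 0 h. The response of TXNIP was 2.45 in SoF (5.47-fold, adjusted p = 3.57e-06 in the edgeR quasi-likelihood test) and 0.15 in Ctrl (adjusted p = 0.741), a difference of 2.30 (SE 0.37, adjusted p = 0.0634). The difference was 0.81 at 1 h, 1.78 at 2 h and 2.82 at 3 h, and over the single libraries left out it stayed between 2.08 and 2.54. In wt the response was 1.57, between those of the mutants.

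PDK4, pyruvate dehydrogenase kinase 4, phosphorylates pyruvate dehydrogenase and so holds back glucose oxidation in fasting (ENSG00000004799.8, chromosome 7, 95583499 to 95596516, minus strand). In SoF it stood at 3.10 and 5.81 CPM at 0 h, 44.9 and 58.7 at 1 h, 49.3 and 54.6 at 2 h, and 80.2 and 74.4 at 3 h. In Ctrl it stood at 0.928 and 1.65 CPM at 0 h, 6.53 and 10.3 at 1 h, 1.80 and 3.55 at 2 h, and 1.1 and 1.53 at 3 h. PDK4 was thus higher at 1 h than at 0 h in both lines, and by 3 h the Ctrl libraries were back among the values of 0 h. The response was 3.86 in SoF, close to the 3.39 of wt, whereas Ctrl had 0.65 (adjusted p = 0.345, edgeR quasi-likelihood test). The difference between SoF and Ctrl was 3.22 (SE 0.58, adjusted p = 0.108), and it widened from 0.79 at 1 h through 2.39 to 4.04 at 3 h. The level before dexamethasone was also higher in SoF, by 1.83 (adjusted p = 0.0789). PDK4-AS1 overlaps PDK4 on the opposite strand, and counting by strand is known here only from the title of the table, so the share of each is uncertain.

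**Figure D1:**
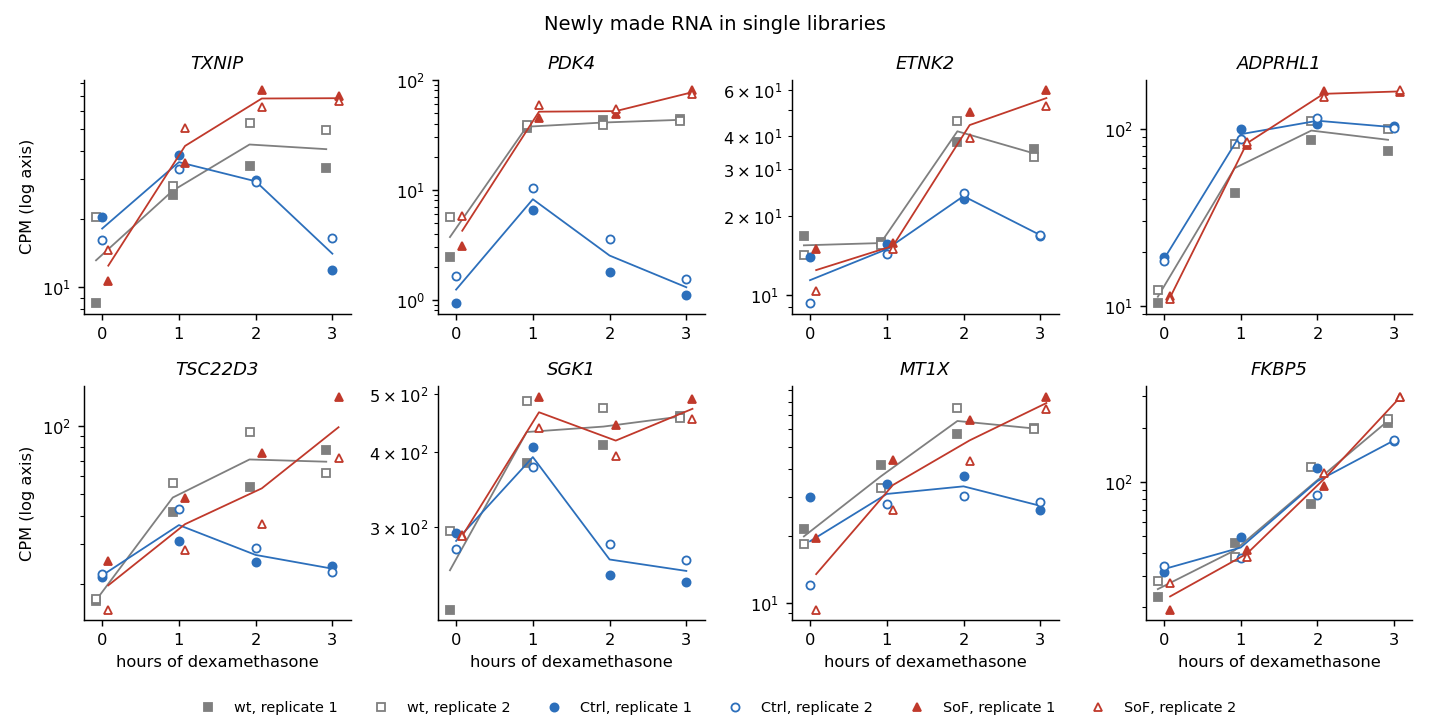
CPM on a log axis (y) against hours of dexamethasone (x) for 8 genes in all 24 libraries; triangles are SoF, circles Ctrl and squares wt, filled for replicate 1 and open for replicate 2, and lines join the geometric means of the 2 libraries. TXNIP, PDK4, TSC22D3 and SGK1 were near their 0 h values in Ctrl at 3 h and above them in SoF and wt, whereas FKBP5 and ADPRHL1 were above 0 h in every line.

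The promoters of TXNIP, PDK4 and TSC22D3 are shown, and they were chosen after their values were seen. These protein-coding genes had differences above 1.5 and Ctrl levels at 3 h near those of 0 h. Other genes, such as MT1X, had both as well and are not shown. The sequences are those of RefSeq on GRCh38.p14, and hold the 250 bases before an annotated start and the 20 from it on, 5′ to 3′ along the gene: chr1:145996560-145996829 for TXNIP (the first of 2 starts listed), chr7:95596497-95596766 for PDK4, and chrX:107775969-107776238 for TSC22D3 (the first of 4 starts), all on the minus strand. The search covered these bases and on to 50 after the start. Capitals mark matches, on either strand, to ACANNNTGT, the core of a GR element, or to AGAACA, the single arm of that element.
TXNIP: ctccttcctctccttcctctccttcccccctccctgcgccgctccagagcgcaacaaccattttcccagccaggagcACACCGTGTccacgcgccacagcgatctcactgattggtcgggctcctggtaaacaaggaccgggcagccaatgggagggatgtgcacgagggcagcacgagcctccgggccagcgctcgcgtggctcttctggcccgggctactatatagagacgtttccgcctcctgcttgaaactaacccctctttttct
PDK4: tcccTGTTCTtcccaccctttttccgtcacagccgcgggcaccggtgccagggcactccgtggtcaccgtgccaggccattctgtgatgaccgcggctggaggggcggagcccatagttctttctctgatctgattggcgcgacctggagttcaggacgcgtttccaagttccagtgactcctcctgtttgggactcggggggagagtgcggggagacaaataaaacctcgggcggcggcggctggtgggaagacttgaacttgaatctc
TSC22D3: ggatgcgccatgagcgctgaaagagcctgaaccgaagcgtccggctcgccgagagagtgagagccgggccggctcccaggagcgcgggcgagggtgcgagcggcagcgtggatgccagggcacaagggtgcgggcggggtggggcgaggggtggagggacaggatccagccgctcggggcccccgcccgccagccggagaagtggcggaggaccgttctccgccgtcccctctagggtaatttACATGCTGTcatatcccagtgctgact
ACANNNTGT was found at base 78 of the TXNIP window and base 244 of the TSC22D3 window, and AGAACA, on the opposite strand, at base 5 of the PDK4 window. An exact CACGTG, a form of the E-box motif, was in none of the 3, and inexact E-boxes were not searched. Of 35116 RefSeq promoters searched over the same span, 5.37% held ACANNNTGT, 14.8% held AGAACA and 7.26% held CACGTG, and the windows of ETNK2 and RHOB, the second TXNIP start and the last 2 TSC22D3 starts held none of the 3 motifs. The windows of these last 2 TSC22D3 starts, chrX:107717043-107717312 and chrX:107716489-107716758, lie far downstream of the printed one. Which start made the RNA counted here was not tested. The motif matches are descriptions of the letters only.

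The other genes that DESeq2 called had the same order of lines. ETNK2, an ethanolamine kinase that starts phosphatidylethanolamine synthesis (chromosome 1, 204131062 to 204152044), went from 15 and 10.3 CPM at 0 h to 49.3 and 39.4 at 2 h and 59.6 and 52.1 at 3 h in SoF. In Ctrl it went from 13.9 and 9.30 CPM to 23.1 and 24.3 at 2 h and 16.8 and 16.9 at 3 h. ETNK2 rose in both lines, by 1.96 in SoF and 0.76 in Ctrl, and the difference was 1.20 (SE 0.24, adjusted p = 0.293 in edgeR). It was -0.07 at 1 h, when ETNK2 had moved little in either line, and 1.61 at 3 h. The antisense genes ERLNC1 and ENSG00000261065 overlap ETNK2.

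ADPRHL1, a heart-enriched ADP-ribosylhydrolase relative, was the clearest case of a gene that rose strongly in both lines and further in SoF. It went from 11.4 and 10.9 CPM at 0 h to 164 and 152 at 2 h and 161 and 165 at 3 h in SoF. In Ctrl it went from 18.9 and 17.8 CPM to 107 and 116 at 2 h and 104 and 101 at 3 h. Its replicates lay close together, and leaving out single libraries moved the difference of 1.31 (SE 0.27) only between 1.26 and 1.35, without a call in edgeR (adjusted p = 0.329). RHOB, a stress-inducible small GTPase gene, was at 420.0 and 290.1 CPM in SoF at 0 h and between 525 and 730.2 CPM at 2 to 3 h. In Ctrl RHOB was at 462 and 409 CPM at 0 h and between 338 and 422 CPM at 2 to 3 h. Its response was 0.86 in SoF, called by edgeR (adjusted p = 0.00207), and -0.22 in Ctrl (adjusted p = 0.419).

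LINC02772 had the largest difference of these, 5.33 with an SE of 1.23, but rested on few counts in Ctrl and at 0 h in both lines. At 0 h it was at 0.221 and 0.100 CPM in SoF and at 0.357 and 0.118 CPM in Ctrl. It reached 14.0 and 9.54 CPM in SoF at 3 h and 4.17 and 4.75 CPM in wt, while the Ctrl libraries of 2 and 3 h held 0.0710 to 0.509 CPM. SMIM3, a small membrane protein gene that was next by p and not called by DESeq2, rose by 2.2 in SoF and by 0.99 in Ctrl.

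ENSG00000213062 is a long noncoding RNA on chromosome 1 (169486076 to 169500182, plus strand) that starts 131 bases from SLC19A2 and is transcribed away from it. Its SoF levels were 9.36 and 7.92 CPM at 0 h, 23.6 and 18.7 at 2 h, and 23.7 and 21.5 at 3 h. Its Ctrl levels were 9.28 and 10.7 CPM at 0 h, 10.6 and 10.1 at 2 h, and 9.42 and 10.2 at 3 h, so that Ctrl was flat within its replicates. The difference was 1.32 (SE 0.22, adjusted p = 0.0638 in edgeR). SLC19A2, the thiamine transporter on the other side of the gap, differed in the same direction by 1.13 (SE 0.34), with a response of 1.37 in SoF and 0.23 in Ctrl. A second such pair was F3, which encodes tissue factor, the starter of coagulation, and ENSG00000288736, 177 bases away on the opposite strand. F3 differed by 1.41 (SE 0.38) and its neighbour by 1.47 (SE 0.39), neither called. F3 was higher in Ctrl than in SoF before treatment (98.6 and 52.6 against 37.8 and 23.7 CPM). At 2 h it was still higher in Ctrl (118 and 109 against 94.3 and 76.4 CPM), and at 3 h it was higher in SoF (113 and 85.5 against 71.2 and 56.5 CPM). These neighbours were picked after their values were seen.

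Among known targets of glucocorticoids the direction was nearly uniform. Of a list of 40 such genes, 36 were measured, and 34 of the 36 had a positive difference, with a median of 0.73. Over all 23651 genes 11550 were positive (48.8%) and the median was -0.01. In the same list 18 genes had an unadjusted p under 0.05, all larger in SoF, and none was called by edgeR after adjustment over all genes. ANGPTL4, TFCP2L1, IGFBP1 and IRS2 were not measured. The list was written from general knowledge with earlier results of these data known, and 4 of its genes were named by the study on these samples, so it is not independent evidence of direction. Without those 4, 30 of 32 were positive with a median of 0.72.

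In the list, 23 genes rose in SoF and none fell (over all genes 9.61% rose and 7.0% fell), whereas 11 rose and 2 fell in Ctrl (over all genes 9.26% rose and 6.46% fell). In wt, 22 rose and 1 fell (over all genes 6.71% rose and 4.30% fell). All 11 that rose in Ctrl also rose in SoF. The median response of the list was 1.32 in SoF, 1.1 in wt and 0.26 in Ctrl. At 1 h the list responded alike by its medians, 0.54 in SoF and 0.41 in Ctrl, and 24 of 36 differences were positive with a median of 0.07. The number called as rising was 7 in SoF and 5 in Ctrl at 1 h, 21 and 10 at 2 h, and 25 and 11 at 3 h. Over all 23651 genes it was 38 and 11 at 1 h, 993 and 1319 at 2 h, and 2645 and 2029 at 3 h. At 3 h, 1 list member was called as falling in SoF and 2 in Ctrl, against 1918 and 1325 over all genes. By 2 h the median of the list had reached 1.22 in SoF against 0.52 in Ctrl. By 3 h it was 1.42 against 0.10, with 35 of 36 differences positive and a median difference of 0.99. The 1 h and 3 h differences use the same 0 h libraries, and the change between them was not tested.

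TSC22D3, which encodes the anti-inflammatory leucine zipper protein GILZ, was at 25.2 and 15.3 CPM in SoF at 0 h, 75.6 and 36.8 at 2 h, and 134 and 72.1 at 3 h. In Ctrl it was at 21.5 and 22 CPM at 0 h, 24.9 and 28.8 at 2 h, and 24 and 22.6 at 3 h. The SoF replicates lay far apart, yet both were above every Ctrl library at 2 and 3 h. The response was 1.90 in SoF, 2.08 in wt and, in Ctrl, 0.20, and the difference of 1.69 (SE 0.42) was not called by edgeR (adjusted p = 1.00). NCBP2L overlaps TSC22D3 on the opposite strand.

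SGK1, a kinase that raises sodium transport, showed the split in tight replicates. It was at 289.9 and 289 CPM in SoF at 0 h, 494 and 439 at 1 h, 443 and 394 at 2 h, and 491 and 454 at 3 h. In Ctrl it was at 293 and 275 CPM at 0 h, 407 and 377 at 1 h, 249 and 280.2 at 2 h, and 242 and 264 at 3 h. SGK1 in Ctrl was thus above 0 h in both libraries of 1 h and not at 2 or 3 h. The difference was 0.75 (SE 0.19), with 0.62 in SoF, 0.81 in wt and -0.13 in Ctrl. ZFP36, an mRNA decay factor that limits cytokine messages, had a similar split, with 0.82 in SoF, 0.71 in wt and -0.04 in Ctrl. DUSP1, a phosphatase that switches off MAP kinases, fell in Ctrl by 0.90 on the log2 scale (adjusted p = 0.00136, edgeR) and changed by -0.17 in SoF without a call (adjusted p = 0.559).

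The metallothioneins, small metal-binding proteins that glucocorticoids raise, were also larger in SoF, with the 0 h libraries of Ctrl far apart. MT1X was at 66.0 and 43.5 CPM at 2 h and 84.1 and 73.9 at 3 h in SoF, against 37.0 and 30.1 at 2 h and 26.1 and 28.5 at 3 h in Ctrl. At 0 h it was at 19.5 and 9.32 CPM in SoF and 29.8 and 12 in Ctrl, so replicate 1 was above replicate 2 in each line. The differences were 1.67 for MT1X, 1.44 for MT1E and 1.11 for MT2A. Over single libraries left out the MT1X difference ran from 0.84 (without Ctrl replicate 1 at 0 h) to 2.32 (without SoF replicate 1 at 0 h), and MT1X and MT1E were both called when Ctrl replicate 2 at 0 h was left out. Genes of this family share near-identical sequence, so the reads of single members are uncertain.

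Other targets rose clearly in both lines. FKBP5, a chaperone that feeds back on the receptor, went from 19.4 and 27.3 CPM at 0 h to 298 and 297 at 3 h in SoF and from 31.6 and 33.8 to 169.9 and 171 in Ctrl, and its responses were 2.92 in SoF, 2.02 in Ctrl and 2.53 in wt. BIRC3, an inhibitor of apoptosis, rose by 3.31 in SoF and 2.10 in Ctrl, and CEBPB, a leucine zipper transcription factor, rose by 2.88 and 1.83. The differences were 0.90 for FKBP5, 1.21 for BIRC3 (SE 0.55) and 1.05 for CEBPB (SE 0.43), none called by edgeR with the low-count filter. PER1, a clock gene, and SCNN1A, a subunit of the epithelial sodium channel, were the 2 list members without a positive value. PER1 rose by 1.39 in SoF and 1.43 in Ctrl, and SCNN1A by 5.63 and 5.70. The difference in response was therefore -0.04 (SE 0.27) for PER1 and -0.08 (SE 0.66) for SCNN1A.

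**Figure D2:**
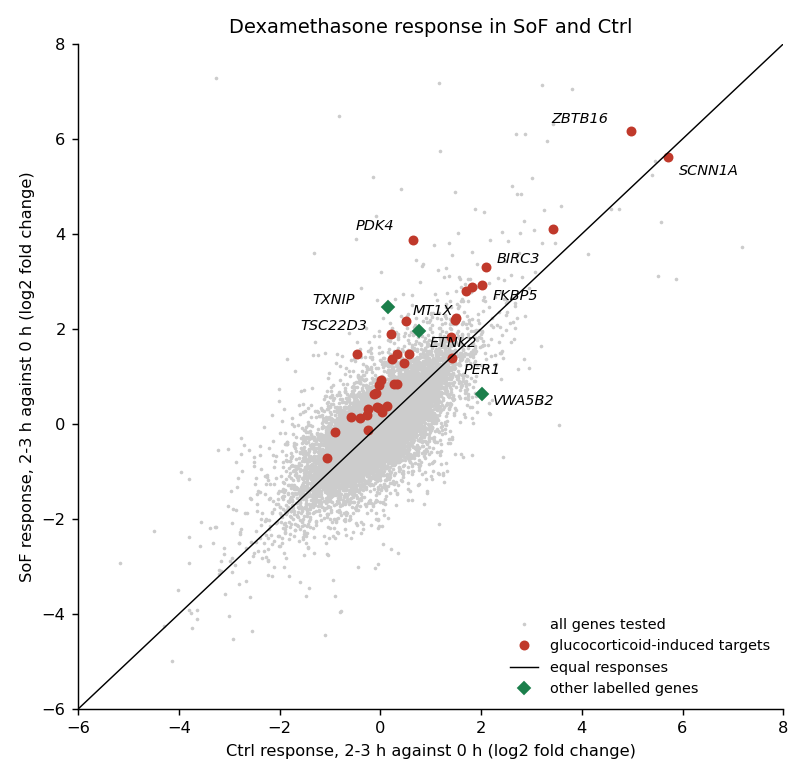
Response in SoF (y) against response in Ctrl (x), both as log2 fold change of the mean of 2 h and 3 h over 0 h, for the 23651 genes tested (grey, 1 gene outside the axes), with the 36 glucocorticoid-induced targets in red and a line of equal responses. The targets lie on or above the line, PDK4 and TSC22D3 far from it and PER1 and SCNN1A on it, and VWA5B2 lies below.

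Among genes smaller in SoF, VWA5B2, which encodes a von Willebrand factor A domain protein, had the smallest p in this direction. It was at 17.0 and 12.9 CPM in SoF at 0 h and between 16.8 and 30.5 CPM at 2 to 3 h, and at 7.5 and 7.18 CPM in Ctrl at 0 h and between 21 and 44.3 CPM at 2 to 3 h. The levels of the lines overlapped at 2 h and stood apart at 0 h, higher in SoF, and at 3 h, higher in Ctrl, and the difference of -1.39 (SE 0.33) was not called (adjusted p = 0.967, edgeR). MIR1224 lies within VWA5B2 on the same strand. KRTAP2-3, a keratin-associated protein gene with near-identical copies, fell in both lines, by 2.82 in SoF and by 1.88 in Ctrl on the log2 scale, from a 0 h level of 169 and 156 CPM in SoF against 85.9 and 94.1 in Ctrl. SFTA1P, a noncoding RNA, fell by 2.26 in SoF and by 1.51 in Ctrl from nearly equal 0 h levels, and at 3 h it was at 14.5 and 11 CPM in SoF against 31.1 and 26.2 in Ctrl. NPIPA3 (-1.0) and NPIPA2 (-0.91), of a family of near-identical copies, and LAG3 (-1.08), an immune checkpoint receptor gene, completed the genes with the smallest p in this direction together with RNU5E-1 and INSYN1.

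The genes induced in wt gave a set chosen by the wt response. The filter, TMM factors and spread behind its calls came from all 24 libraries, those of SoF and Ctrl among them. Of the 1587 genes that rose in wt at 2 to 3 h, 1017 (64.1%) had a positive difference between SoF and Ctrl, with a median difference of 0.08. Of 103 that rose in wt by at least 2 on the log2 scale, 87 (84.5%) did, with a median of 0.93. In these 103 the median response was 2.95 in SoF (7.73-fold), 1.83 in Ctrl (3.55-fold) and 2.83 in wt. Of them 89 rose in SoF and 63 in Ctrl (over all genes 9.61% and 9.26% rose). The smaller median was not steady: over single libraries left out it ran from -0.08 (without Ctrl replicate 1 at 0 h) to 0.20 (without SoF replicate 1 at 0 h), whereas that of the 103 genes ran from 0.56 to 1.01. The limit of 2 was set after the data were seen.

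Genes repressed in wt showed no such shift. Of 1018, 558 (54.8%) were more negative in SoF, with a median difference of -0.03, and of 122 that fell by at least 2 on the log2 scale 71 were, with a median of -0.20, which ran from -0.44 to 0.16 over single libraries left out. Seen from the other side, 120 of the 328 genes that were larger in SoF with an unadjusted p under 0.05 were induced in wt (36.6%, against 6.71% of all genes tested), while 200 were not called in wt (61.0%, against 89.0% of all genes), and 25 were among the 103 strongly induced ones. Of the 217 genes smaller in SoF at that p, 3 were induced in wt (1.38%, against 6.71% of all genes tested).

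**Figure D3:**
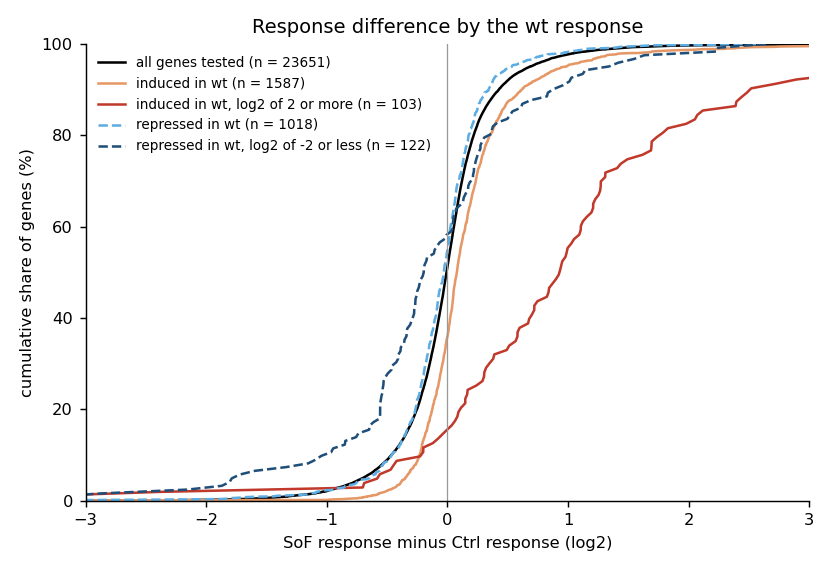
Cumulative share of genes (y, percent) against the SoF minus Ctrl difference in response (x, log2, drawn from -3 to 3) for all genes, genes induced in wt and genes repressed in wt. The curve of the 103 genes induced by at least 2 in wt lies to the right of the others with its median at 0.93, and the curve of all 1587 induced genes is shifted slightly with its median at 0.08.

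The other gene lists had smaller medians than the glucocorticoid targets. Of 21 measured genes around pyruvate dehydrogenase and glucose sensing, 16 were positive with a median of 0.16, and TXNIP and PDK4 were the 2 with an unadjusted p under 0.05. The paralogs of PDK4 did not share its value: the differences were 0.16 (SE 0.26) for PDK1, -0.06 (SE 0.33) for PDK2 and -0.05 (SE 0.30) for PDK3. ARRDC4, the arrestin most like TXNIP and, like it, a target of the glucose sensor MondoA, differed by 0.28 (SE 0.31), and ARRDC3 by 0.57 (SE 0.44).

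Among 22 FOXO and insulin signalling genes 13 were positive (median 0.05). PIK3R1, the regulatory subunit of PI3 kinase, rose by 0.95 in SoF and was at 0.17 in Ctrl, and DEPP1, a FOXO target, rose by 1.19 in SoF and was at 0.25 in Ctrl. Of 12 ethanolamine and choline phospholipid genes 5 were positive (median -0.07), and ETNK1, the paralog of ETNK2, was at -0.34 (SE 0.34). Of 20 GR coregulators and chaperones 12 were positive (median 0.03), with FKBP5 the only member with an unadjusted p under 0.05. Of 12 MAP kinase phosphatase and Sprouty genes 7 were positive (median 0.03).

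Cytokines and immediate-early genes are often lowered by glucocorticoids. Of 12 cytokines and chemokines 7 were positive with a median of 0.38, which ran from -0.38 (without Ctrl replicate 1 at 0 h) to 0.49 (without Ctrl replicate 2 at 0 h). In this list 3 genes rose and 1 fell in SoF (over all genes 9.61% rose and 7.0% fell). In Ctrl 2 rose and 1 fell (over all genes 9.26% and 6.46%), and in wt 3 rose and 1 fell (over all genes 6.71% and 4.30%). The median responses were 0.48 in SoF, 0.32 in Ctrl and 0.94 in wt. IL1A was the only member with an unadjusted p under 0.05 in edgeR, at 1.54 (SE 0.57). Of 22 immediate-early factors 12 were positive with a median of 0.03. Of them 16 fell in SoF and 15 in Ctrl (over all genes 7.0% and 6.46% fell). EGR1, a zinc finger factor of the growth response, went from 4799 and 4605 CPM at 0 h to 132 and 141 at 3 h in SoF and from 5294 and 5076 to 169.9 and 190.2 in Ctrl. At 1 h EGR1 was still at 4648 and 4587 CPM in SoF and at 5193 and 6117 CPM in Ctrl. EGR1 fell by 3.92 in SoF and fell by 3.81 in Ctrl on the log2 scale, with a difference of -0.11 (SE 0.34). The part of dexamethasone in this fall was not tested.

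The remaining lists had medians on either side of 0, and the clock list holds PER1, which is also among the glucocorticoid targets. The median difference was -0.01 for 18 YAP and SRF targets, -0.08 for 16 TGF-beta and BMP feedback genes, 0.03 for 18 clock genes, 0.12 for 11 heat shock genes, -0.06 for 13 mitochondrially encoded mRNAs, 0.06 for 17 cholesterol synthesis genes and 0.02 for 17 p53 targets. Apart from the clock genes (0.0020 to 0.12), each of these medians took both signs over single libraries left out, within -0.31 and 0.18 for the TGF-beta and BMP genes, -0.18 and 0.29 for the heat shock genes, -0.24 and 0.17 for the mitochondrial mRNAs, -0.18 and 0.27 for the p53 targets, -0.095 and 0.23 for the cholesterol genes and -0.14 and 0.087 for the YAP and SRF targets.

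**Figure D4:**
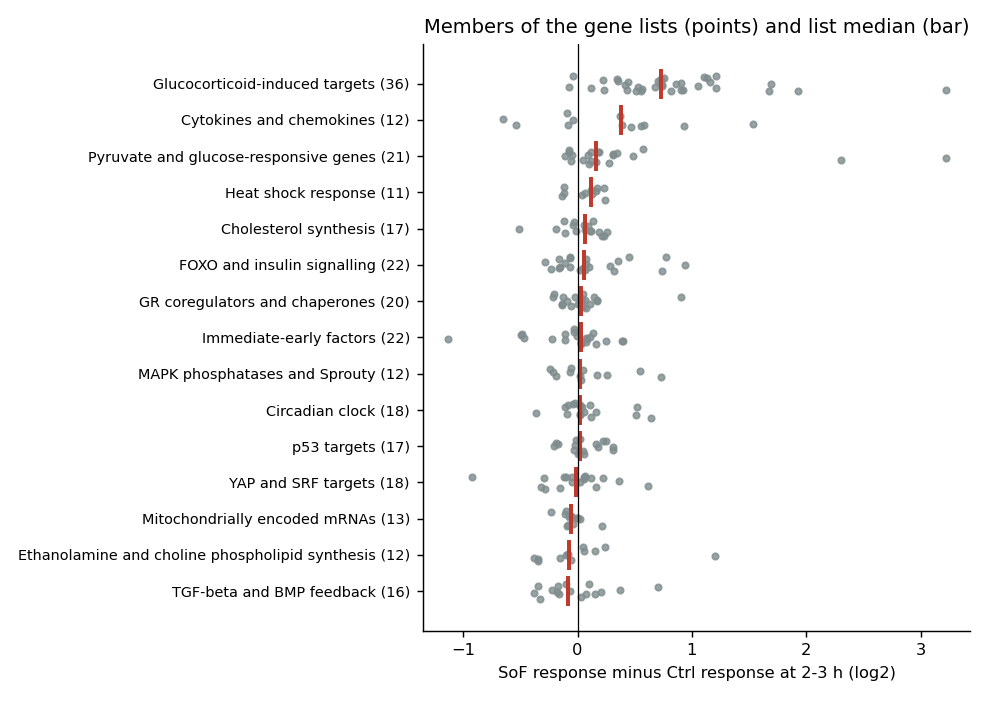
SoF minus Ctrl difference in response (x, log2) for the measured members of 15 gene lists (y, number measured in brackets), 1 point per gene with the list median as a red bar. The glucocorticoid-induced targets have a median of 0.73, the cytokines 0.38, and the remaining lists lie between -0.08 and 0.16.

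The difference in response is made of a difference before and a difference during treatment. Before dexamethasone, 61 genes were higher in SoF than in Ctrl (0.258%) and 21 lower (0.0888%). At 2 to 3 h, 403 were higher (1.70%) and 240 lower (1.01%). Of the 36 glucocorticoid targets 0 were called in either direction at 0 h, with a median difference in level of -0.12, and 12 were higher and 0 lower in SoF at 2 to 3 h, with a median of 0.54. TXNIP was higher in SoF by 1.74 at 2 to 3 h (adjusted p = 1.21e-05), PDK4 by 5.04 (adjusted p = 1.26e-11), ETNK2 by 1.31 (adjusted p = 1.13e-06) and TSC22D3 by 1.60 (adjusted p = 0.000244, edgeR quasi-likelihood test). A level that differs at 2 to 3 h does not show a different response, since the 0 h value enters only the interaction contrast.

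The wt line was set beside both mutants with the same contrast. NR3C1 RNA was lower in wt, at 552 and 824 CPM at 0 h against 2428 to 3431 CPM in the mutant lines, and the part of this difference in the values was not tested. RNA does not give the amount of receptor, and the paper picked its sorted cells to match nuclear GR protein between the lines. The SoF response minus the wt response was called for 0 genes in edgeR (0%), with 456 below 0.05 before adjustment (1.93%) and 0 calls by DESeq2. The Ctrl response minus the wt response was called for 0 genes in edgeR (0%), with 872 below 0.05 before adjustment (3.69%) and 2 calls by DESeq2. In the list of 36 targets the median was 0.10 for SoF minus wt, with 22 positive, and -0.60 for Ctrl minus wt, with 3 positive. These contrasts share libraries with that of SoF and Ctrl and with each other. For TXNIP the values were 0.88 for SoF minus wt and -1.42 for Ctrl minus wt, for PDK4 0.47 and -2.74, and for TSC22D3 -0.18 and -1.88. In bulk libraries a smaller share of responding cells and a weaker response per cell cannot be told apart.

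The contrast was finally computed in separate libraries, 6 of replicate 1 and 6 of replicate 2, which share none. TXNIP gave 2.87 and 1.69, PDK4 3.75 and 2.95, ETNK2 1.35 and 1.00, ADPRHL1 1.36 and 1.25, TSC22D3 1.80 and 1.53, and SGK1 0.94 and 0.57 (log2 CPM). Of the 36 targets 35 were positive in replicate 1 and 32 in replicate 2, 31 of them in both, and the medians were 0.84 and 0.60. Over all 23651 genes, by contrast, the values of the 2 replicates were nearly unrelated (Pearson r 0.07 across genes, which are not independent replicates). The r was 0.22 over 11407 genes with a mean above 10 CPM and 0.51 over the 1587 genes induced in wt.

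**Figure D5:**
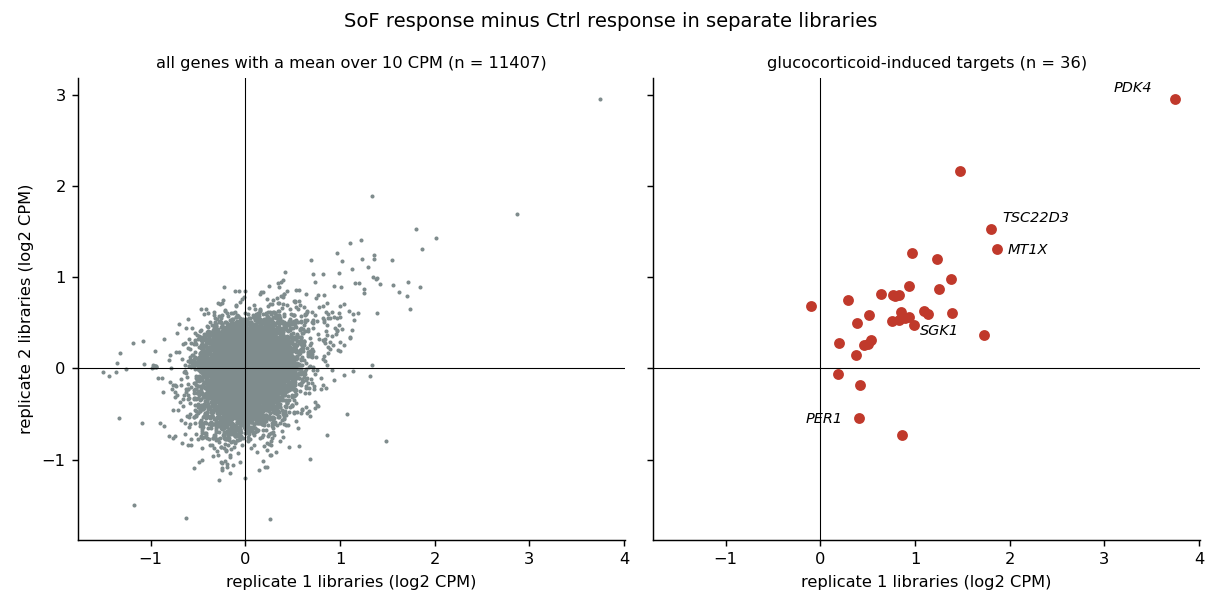
SoF minus Ctrl difference in response computed from replicate 2 libraries (y) against that from replicate 1 libraries (x), both in log2 CPM, for 11407 genes with a mean above 10 CPM (left) and the 36 glucocorticoid targets (right). Most genes scatter around 0 without order, and 31 of the 36 targets lie above 0 on both axes.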

How the data were processed

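4sU-labelled RNA was sequenced from U2OS lines with wt, SoF or Ctrl GR, 2 libraries for each line and time. The labels do not say whether these came from separate cultures, so p-values measure the spread between libraries. The authors tagged molecular identifiers with UMI-tools 1.1.2, trimmed reads with Trim Galore 0.6.6, aligned them to hg38 with STAR 2.7.3a, removed duplicate molecules and counted reads over exons with featureCounts on GENCODE release 39. The deposited values are whole-number read counts per gene and library, not normalized, and no column was left out.

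Gene symbols and hg38 positions were taken from GENCODE release 44 by gene identifier, ignoring the version suffix (61369 of 61533 genes, 99.7%). Counts were fitted in edgeR 4.0.16 (R 4.3.3, limma 3.58.1) over all 24 libraries in 12 groups, with filterByExpr (minimum count 10, minimum total 15), TMM factors and the quasi-likelihood F test. The common biological coefficient of variation was 14.2%. Genes were called at a Benjamini-Hochberg adjusted p under 0.05 over all genes tested. DESeq2, the tool of the study, was run as an alternative (version 1.42.0). Standard errors are the absolute log2 value divided by the square root of F, and log2 CPM used a prior count of 2. The procedure was run on simulated counts drawn independently for each library. They leave out the deviations that same-numbered libraries share in part of the groups, so that run does not bear on their effect.

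Genes named are the 8 with the smallest p in each direction, the 4 that the study names (BIRC3, TSC22D3, CEBPB and PDK4), NR3C1, and up to 3 members of each gene list with the smallest p. SGK1, ZFP36, FKBP5, DUSP1, MT1E, MT2A, PER1, SCNN1A, SLC19A2, F3, ENSG00000288736, EGR1, PDK1, PDK2, PDK3, ARRDC3 and ARRDC4, where outside that rule, were chosen after their values were seen. No promoter met the rule of a called gene. The comparison and the gene lists were chosen with earlier results of these data known.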

Additional observations from a re-analysis of the deposited data

Results flagged for a closer look

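RNU5E-1 and INSYN1 were singled out because all 4 SoF libraries of 2 and 3 h lay below both SoF libraries of 0 h, while all 4 Ctrl libraries lay above theirs. RNU5E-1, a U5 small nuclear RNA gene with near-identical copies and an overlapping gene on its strand, was at 6.19 and 4.11 CPM in SoF at 0 h and between 1.38 and 3.17 CPM at 2 to 3 h, and at 1.71 and 1.41 CPM in Ctrl at 0 h and between 1.77 and 2.22 CPM at 2 to 3 h, a difference in response of -1.70 (SE 0.52). INSYN1, which encodes a protein of inhibitory synapses and overlaps INSYN1-AS1, was at 1.77 and 1.30 CPM in SoF at 0 h and between 0.905 and 1.29 CPM at 2 to 3 h, and at 0.857 and 0.471 CPM in Ctrl at 0 h and between 1.37 and 1.98 CPM at 2 to 3 h, a difference of -1.64 (SE 0.53). Neither difference was called (adjusted p = 1.00 for each in edgeR's quasi-likelihood test).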

How the results depend on the processing

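The count of genes called for the SoF minus Ctrl response, 0 in edgeR, was 7 with DESeq2, 37 without a low-count filter, 2 in a fit of the 12 SoF and Ctrl libraries of 0, 2 and 3 h alone, 3 with 3 h alone, and 0 to 4 with single libraries left out. It stayed at 0 with the other size factors, the stricter filter, 2 h alone, and without all replicate 1 or all replicate 2 libraries. The 37 without a low-count filter were 35 larger and 2 smaller in SoF. Among them were FKBP5, BIRC3, CEBPB, TSC22D3, MT1X, VWA5B2 and KRTAP2-3. SoF minus wt gave 2 without a filter. Ctrl minus wt gave 2 with DESeq2, 30 without a filter and 0 to 3 with single libraries left out (3 without wt replicate 2 at 0 h). The 82 genes called at 0 h became 213 without a filter, 28 to 78 with single libraries left out (28 without Ctrl replicate 1, 50 without SoF replicate 2), and 20 and 25 without all libraries of replicate 1 and of replicate 2. The 643 called at 2 to 3 h became 244 with a minimum log2 difference of 1, 85 at 2 h alone, 158 at 3 h alone, 322 to 442 with single libraries left out, and 73 and 80 without all libraries of replicate 1 and of replicate 2. The median of genes induced in wt, 0.08, became 0.24 and 0.93 with a wt response of at least 1 and 2, 0.18 without all replicate 2 libraries, -0.012 without all replicate 1 libraries, 0.036 at 2 h alone and 0.17 at 3 h alone, and ran from -0.12 to 0.22 with single libraries left out, where the genes were chosen again each time. That of genes repressed in wt, -0.03, became 0.051 at 2 h alone, -0.12 at 3 h alone and -0.20 with a wt fall of at least 2, and ran from -0.16 to 0.072. The correlation of replicates, 0.07, was 0.051 with a prior count of 0.5. The causes of these shifts were not tested. Where a group kept 1 library, its spread was taken from the remaining groups.

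Replicate numbers did not pair all libraries (the methods put replicate pairs through the pulldown together, without naming the pairs): the deviations of same-numbered libraries correlated above 0.1 in 21 of 66 pairs of groups, with 0.39 to 0.57 between 0 h groups. With a replicate block, 3 genes were called for SoF minus Ctrl (TXNIP, ENSG00000213062 and PDK4), and with a replicate block per line 7 (F3, TXNIP, ENSG00000213062, RHOB, PDK4, ADPRHL1 and TSC22D3) and 1 for Ctrl minus wt.

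Each group has 2 libraries, whether depth or their spread limits the calls was not tested, and genes with few counts, such as LINC02772, INSYN1 and RNU5E-1, have the widest errors. The 0 h libraries enter every response, and each line is 1 cell pool.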
